A study of Mus musculus with 52 samples.

Results

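RNA-seq was used to ask what artificial stabilization of beta-catenin does to endothelial cells (ECs) of the cerebellum, a vascular bed that already has a barrier and active beta-catenin signaling. The comparison rests on 4 of the 52 libraries of the series, the GFP-positive cells sorted from cerebella of wild-type (WT) and beta-catenin stabilized mice, with 2 replicates per genotype, and it covered 17915 genes. The mice of the sorted libraries all carried Tie2-GFP, in which Tie2 regulatory sequences label ECs, and all were adult males. WT mice among them had no further transgene. In beta-catenin stabilized mice this was combined with Pdgfb-CreER, which recombines loxP sites in ECs once 4-hydroxytamoxifen is given, and with an allele of Ctnnb1 (labelled BcatEx3fl) whose exon 3 is flanked by loxP sites and which codes for a degradation-resistant protein once that exon is removed. The genotypes therefore also differed in the presence of Cre and in drug treatment, which cannot be told apart from the allele here. Stabilized and WT ECs of the anterior and posterior pituitary, GFP-negative cells of the same cerebella and cortical EC transcripts isolated by RiboTag, in which tagged ribosomes of ECs are pulled down, are used only to show where the cerebellar response differs. Per the study's methods, the adult RiboTag mice of both genotypes carried the tagged Rpl22 allele and Pdgfb-CreER and were given 4-hydroxytamoxifen. Only the stabilized ones also carried the Ctnnb1 allele.

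In canonical Wnt signaling, ligands bind Frizzled receptors and their co-receptors, beta-catenin escapes degradation, enters the nucleus and activates target genes together with TCF/LEF factors. Brain and retinal ECs depend on this pathway to form and keep the blood-brain barrier (BBB), with tight junctions, nutrient transporters and few fenestrae or caveolae. Venous ECs, and above all venules, carry the adhesion molecules by which leukocytes leave the blood, and ECs together with pericytes lay down the vascular basement membrane.

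Endothelial markers were abundant in all 4 libraries, and those of other cell types varied. All 18 pan-endothelial markers were detected in every cerebellum EC library, with summed levels of 8278 and 7738 TPM (a share of all transcripts, corrected for transcript length) in WT and 7409 and 7381 TPM in stabilized ECs, and the Y-linked transcript Ddx3y lay between 23.2 and 29.8 TPM in all 4 libraries. Microglial markers were scarce, with summed levels between 13.5 and 22.5 TPM and Tmem119, Aif1 and Fcrls at 0 reads in all 4 libraries. Neuron markers summed to between 15.1 and 27.0 TPM, oligodendrocyte markers to 173 and 122 TPM in WT and 252 and 265 TPM in stabilized ECs, and astrocyte markers to 123 and 104 against 169 and 29.5 TPM. Choroid plexus markers reached 71.5 TPM in WT replicate 2, of which Ttr made up 66.3 TPM, and at most 4.6 TPM in the other libraries. Mural and fibroblast markers are given with the matrix genes. The WT libraries held 33458597 and 28116011 estimated reads and the stabilized libraries 28261310 and 23228672. Fewer genes were detected in the stabilized libraries: of the 17915 genes tested, 4599 and 5492 had 0 reads, against 3479 and 2468 in WT. In the pituitary the order was the other way round, the anterior lobe having 1388 and 1349 such genes in stabilized ECs and 3385 and 3351 in WT, and the posterior lobe 2316 and 2554 against 3401 and 4918. Accordingly, 563 genes with at least 10 reads in both WT cerebellum libraries had 0 reads in both stabilized libraries, and 25 genes showed the reverse. The part of detection in the results that follow was not tested.

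**Figure D1:**
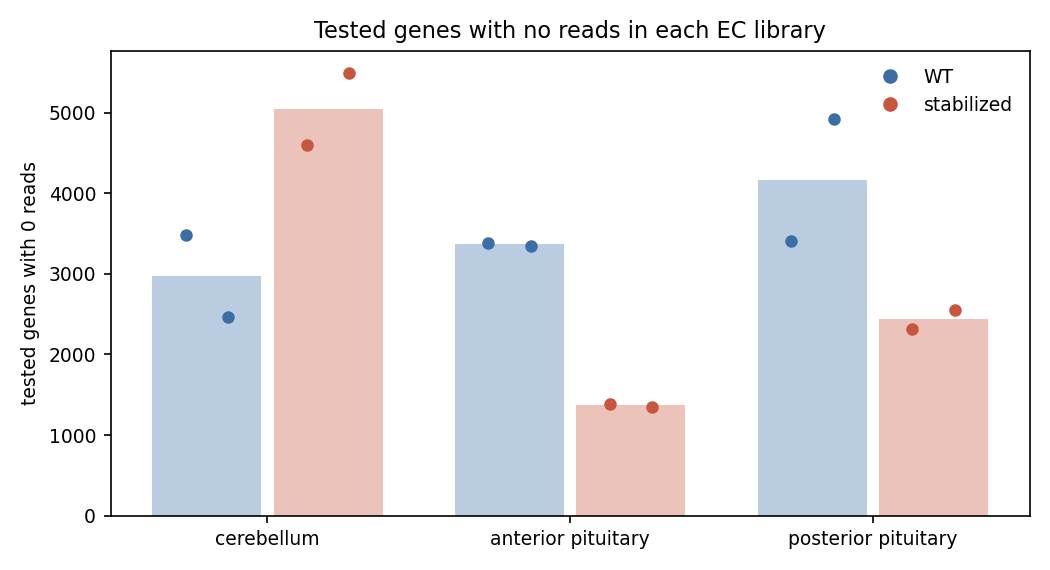
Number of the 17915 tested genes with 0 reads (vertical axis) in each EC library of cerebellum, anterior pituitary and posterior pituitary; dots are libraries, bars their mean (n = 2), blue WT and red beta-catenin stabilized. Stabilized cerebellum libraries lacked reads for more genes (4599 and 5492) than WT (3479 and 2468), and both pituitary lobes showed the opposite order.

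Ctnnb1 itself (chr9:120929216-120960507, GRCm38), which codes for beta-catenin, stood at 928 and 1664 TPM in WT and 1122 and 1006 TPM in stabilized ECs. These ranges overlapped, and the log2 fold change of its reads was -0.28 ± 0.30 (SE; adjusted p = 0.801). Because loss of exon 3 leaves most of the transcript in place and the shortened transcript is not in the annotation, the level of Ctnnb1 does not check the genotype labels.

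Across all genes, 12 were called higher (0.067% of those tested) and 104 lower (0.581%) in stabilized cerebellum ECs. Calls, which took in 0.648% of the genes in either direction, needed a 2-fold change or more and an adjusted p under 0.05 in edgeR's quasi-likelihood test, with the spread shared over all 12 EC libraries. At an unadjusted p under 0.05 there were 1751 of the 17915 genes, the background for such counts in the lists below. The count depends on the setting. A fit of the 4 cerebellum libraries alone, which also tested fewer genes (13513), called 3 higher and 3 lower, and DESeq2 in place of edgeR called 126 and 652. In WT ECs the lower genes were about as abundant as genes in general: 71 of the 104 (68.3%) had a mean under 10 TPM, as did 67.1% of all genes tested, and the medians were 3.81 and 3.65 TPM. In both stabilized libraries 41 of the 104 (39.4%) had 0 reads, against 20.0% of all genes. Among genes with at least 10 TPM in both libraries of the higher group, 8 were called higher and 25 lower. Over all genes the median log2 fold change was -0.08, with 53% of genes below 0. Over the 5963 genes with a mean of at least 10 TPM it was 0.06, with 46% below 0.

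**Figure D2:**
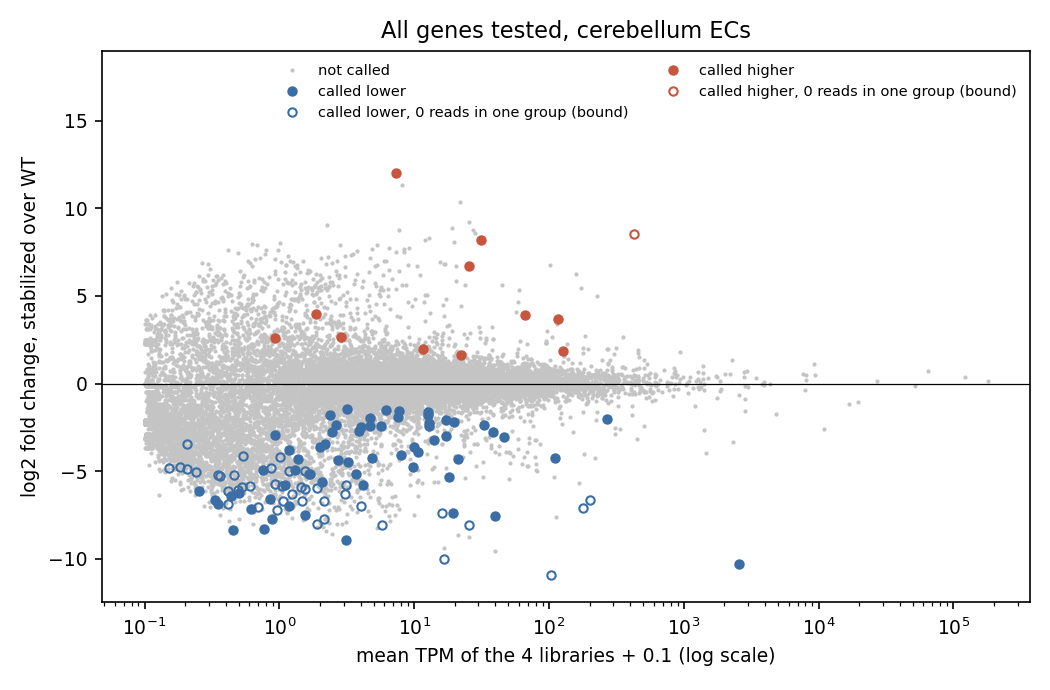
Log2 fold change of reads, stabilized over WT cerebellum ECs (vertical axis), against the mean TPM of the 4 libraries plus 0.1 (horizontal axis, log scale); each dot is a gene, red were called higher, blue lower, and open circles had 0 reads in one group and stand at their lower bound. The 12 genes called higher are outnumbered by 104 called lower, which span low and high levels.

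The rises included genes that WT cerebellum ECs scarcely transcribed. Esr1 (chr10:4611593-5005614, GRCm38), which codes for estrogen receptor alpha, a hormone-activated transcription factor, was at 0 and 0.052 TPM in WT and at 47.9 and 76.7 TPM in stabilized ECs, a log2 fold change of 8.19 ± 1.12 (SE; adjusted p = 0.0051). Cyp2e1 (chr7:140763739-140774987), a cytochrome P450 that oxidizes ethanol and other small molecules, was at 0.641 and 0.136 TPM in WT and at 55.9 and 45.3 TPM in stabilized ECs (6.70 ± 1.08; adjusted p = 0.022). Neither pair of groups came near to overlapping, and in the GFP-negative cells of the same cerebella both genes stayed at or below 0.156 TPM. Nxpe4 (chr9:48162023-48400025), a member of the neurexophilin and PC-esterase domain family, went from 1 read over both WT libraries to 4556 reads over both stabilized libraries, or from 0 and 0.007 TPM to 14.2 and 14.6 TPM. Its ratio was 5485, with a 95% interval for counting error of 984 to 216690, and it was called (adjusted p = 0.014). Itih5 (chr2:10153571-10256529), an inter-alpha-trypsin inhibitor heavy chain that binds hyaluronan in the matrix, was already present in WT ECs at 83.2 and 41.2 TPM and reached 194 and 186 TPM (1.83 ± 0.35; adjusted p = 0.033). Its call was lost without WT replicate 2 (1.54, adjusted p = 0.095).

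Of the 12 genes called higher, 6 passed as enriched in ECs over the GFP-negative cells, as did 1868 (10.4%) of all genes tested. Enrichment was averaged over both genotypes, so a rise in stabilized ECs itself helps a gene to pass, and these shares cannot be compared. Esr1, for example, was no higher in WT ECs than in WT GFP-negative cells. Lepr, the leptin receptor, was at 4.96 and 7.44 TPM in WT and 24.3 and 9.57 TPM in stabilized ECs (1.98 ± 0.38; adjusted p = 0.037), and B3gnt3, a glycosyltransferase that extends O-linked sugar chains, was at 0.297 and 0.144 against 2.16 and 4.45 TPM (3.95 ± 0.58; adjusted p = 0.0080). Cdc14a, a dual-specificity phosphatase, was at 3.52 and 8.07 against 43.9 and 32.4 TPM, and its reads rose by a log2 fold change of 1.65 ± 0.28 (adjusted p = 0.020). The read measure rose less than the TPM of Cdc14a, which also divides by transcript length. These 3 were chosen after their values were seen, as were Pcdh7, a protocadherin, and Srgap3, a GTPase-activating protein, which were called higher but reached at most 2.24 and 6.16 TPM.

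The last 3 of the 12 have near-identical copies in the genome, among which reads can be split. Rps18, a ribosomal protein gene, was at 14.3 and 29.7 TPM in WT and 161 and 261 TPM in stabilized ECs (3.69 ± 0.47; adjusted p = 0.0035). The 4 copies annotated under the Rps18 name summed to 25.5 and 48.5 against 162 and 264 TPM, and copies under other names were not summed. Rps2 was called higher (6.53 and 5.86 against 133 and 118 TPM), but the 11 copies annotated under its name summed to 358 and 318 TPM in WT and 328 and 250 TPM in stabilized ECs, so these copies together did not rise. Gm15526, a processed pseudogene, was at 0 reads in both WT libraries and at 523 and 1183 TPM in stabilized ECs, at least 376-fold higher against a floor of 3 reads, and it was also called higher in both pituitary lobes. In GFP-negative cells of the cerebellum it was at 0 in WT and 63.8 and 173 TPM in stabilized libraries, whereas in cortex it went the other way, from 532 and 838 TPM to 0 in both stabilized libraries (adjusted p = 0.044). These calls are uncertain for single genes.

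**Figure D3:**
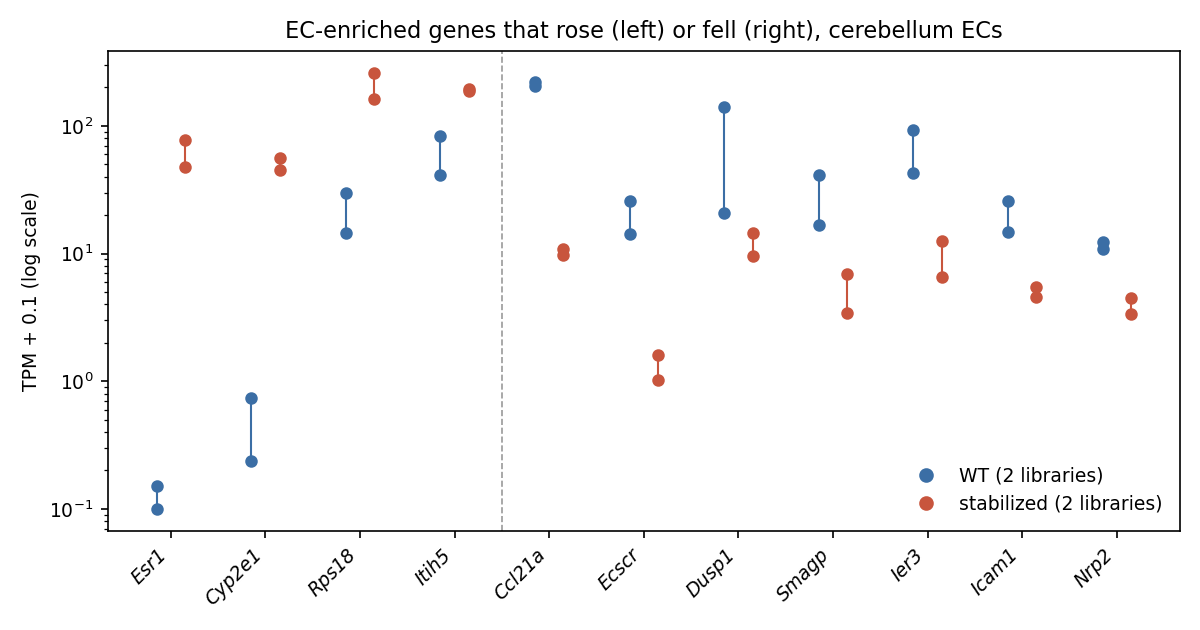
Level in TPM plus 0.1 (vertical axis, log scale) of the EC-enriched genes named by rule, rises left and falls right of the dashed line; blue points are the 2 WT and red points the 2 stabilized cerebellum EC libraries, and lines join libraries of a genotype. Esr1 and Cyp2e1 move from below 1 TPM to above 40 TPM, Itih5 rises from 83.2 and 41.2 to 194 and 186 TPM, and Ccl21a falls from above 200 TPM to about 10 TPM.

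Of the genes EC-enriched over both genotypes and present at 10 TPM or more in both WT libraries, the one with the largest fall codes for a chemokine. Ccl21a (chr4:42772860-42773993), which attracts T cells and dendritic cells through CCR7, was at 205 and 220 TPM in WT and at 9.60 and 10.8 TPM in stabilized cerebellum ECs, a log2 fold change of -4.23 ± 0.50 (adjusted p = 0.0091). The sum over the 3 copies annotated under the Ccl21 name gave the same values, and copies under other names were not summed. It was at 0 TPM in all 8 pituitary EC libraries, and in cortical ECs at 0 TPM in both WT and 1.73 and 2.3 TPM in both stabilized libraries (adjusted p = 0.18). Without WT replicate 2 its call was lost (-3.88, adjusted p = 0.077). Ecscr, an EC surface protein with roles in migration, was at 14.2 and 25.6 against 1.5 and 0.923 TPM (-3.89 ± 0.50; adjusted p = 0.0035), and Smagp (chr15:100621339-100636940), a small transmembrane adhesion protein, at 41.3 and 16.7 against 6.83 and 3.32 TPM (-2.98 ± 0.41; adjusted p = 0.0051). Icam1 (chr9:21015985-21028817), the EC ligand of leukocyte integrins, was at 25.8 and 14.7 against 5.34 and 4.46 TPM (-1.82 ± 0.32; adjusted p = 0.025), a call that was lost without stabilized replicate 2 (-1.76, adjusted p = 0.057). Nrp2 (chr1:62703285-62818695), the VEGF-C and semaphorin co-receptor of veins and lymphatics, was at 12.1 and 10.8 against 3.25 and 4.41 TPM (-1.58 ± 0.26; adjusted p = 0.013). In each of these 5 genes both stabilized libraries lay below both WT libraries. Emp1, an epithelial membrane protein that fell from 6.79 and 7.15 TPM to 0.379 and 0 TPM (-5.16 ± 0.83; adjusted p = 0.013), was EC-enriched too, at a lower level, and was chosen after its values were seen.

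Of the 104 genes called lower, 94 were protein-coding, 9 were pseudogenes and 10 passed as EC-enriched. Because enrichment was averaged over both genotypes, a fall in stabilized ECs itself lowers it, and the last count says nothing of the WT state. Rps29, for example, did not pass, although it was higher in WT ECs than in WT GFP-negative cells (3.42 and 18.7 TPM). In all 104 the read levels of the groups did not overlap, as in 6282 (35.1%) of all genes tested. Among called genes not enriched in ECs by this averaged measure, those with the most negative fitted values have copies elsewhere in the genome. The mitochondrial mt-Co3 (297 and 116 TPM in WT), the pseudogene Gm5641 (35.5 and 30.7 TPM) and the ribosomal Rps29 (33.1 and 67.8 TPM) all had 0 reads in both stabilized libraries, at least 1926-fold, 1057-fold and 266-fold lower. The most abundant gene called lower was mt-Atp6, at 4367 and 5879 against 0 and 6.85 TPM (-10.32 ± 1.65; adjusted p = 0.013), chosen after its values were seen. Reads of mitochondrial genes as a whole made up 12.6% and 16.1% of WT and 14.5% and 17.2% of stabilized libraries, so these libraries did not hold less mitochondrial RNA in total. In posterior pituitary ECs mt-Co3 went the other way, from 0 TPM in both WT to 599 and 614.5 TPM in both stabilized libraries. How reads of mt-Co3 and mt-Atp6 were split among similar sequences was not tested, and their calls are uncertain for single genes.

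By sign, venous and leukocyte adhesion genes were mostly below 0, where 53% of all genes tested lay. Of 22 members tested, 3 were called lower (13.6%, against 0.581% of all genes) and 0 higher (1 at an unadjusted p under 0.05, 1 by DESeq2), 19 had a log2 fold change below 0 and 3 above, and the median was -0.92. The called members were Icam1, Nrp2 and Ptgs1, the cyclooxygenase that makes prostaglandins, which fell from 116 reads over both WT libraries to 1 read over both stabilized libraries (ratio 96.4, interval 17.0 to 3838; adjusted p = 0.00074) and whose WT level was only 0.649 and 0.890 TPM. Ptgs1 was depleted in ECs, at 8.41 and 6.02 TPM in the WT GFP-negative cells, whereas Icam1 and Nrp2 were EC-enriched. In WT pituitary ECs Ptgs1 was at 65.1 and 71.8 TPM in the anterior and 188 and 85.0 TPM in the posterior lobe. Vcam1, which binds leukocyte integrin alpha-4, did not pass at 41.7 and 62.8 against 18.3 and 41.8 TPM (-1.0 ± 0.40; adjusted p = 0.43). Vwf, the platelet adhesion protein stored in EC granules, was at 51.7 and 76.7 against 16.8 and 30.9 TPM (-0.57 ± 0.42), and Slc38a5, an amino acid transporter of brain veins and capillaries, at 68.7 and 122 against 51.6 and 26.8 TPM (-1.18 ± 0.77). Nr2f2, the transcription factor that specifies veins, was at 10.8 and 6.85 against 5.27 and 4.48 TPM (-0.96 ± 0.42; adjusted p = 0.50). Both stabilized libraries lay below both WT libraries for these 3 genes, whereas Vcam1 overlapped narrowly. Plat, tissue plasminogen activator, went the other way at 28.5 and 27.1 against 83.0 and 95.5 TPM without passing (1.97 ± 0.45; adjusted p = 0.084). With all 24 sorted libraries or only the groups compared in the fit, 0 members were called lower, and with an offset for gene length 1 was. Summed over the list, the level was 719 and 1056 TPM in WT and 446 and 472 TPM in stabilized ECs. In these bulk samples fewer venous cells and less RNA per cell cannot be told apart.

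Genes of fenestrated, caveolar and peripheral ECs held few calls in the main fit, and 11 of the 35 tested had a mean of at least 10 TPM over the 4 libraries. The number called lower varied with the setting, from 0 with only the groups compared to 7 by DESeq2 and 12 without a filter on low counts. Of the 35 tested, 2 were called lower (5.71%, against 0.581% of all genes) and 0 higher (5 at an unadjusted p under 0.05, 2 by DESeq2), with 27 below 0 (against 53% of all genes) and 6 above and a median of -0.82 (-0.55 with genes at 0 reads in one group at their bound), or -0.21 over those 11 members. Exoc3l2, an EC exocyst subunit, was at 0.664 and 0.779 TPM in WT and had 0 reads in both stabilized libraries, at least 37.7-fold lower (adjusted p = 0.0011). In WT pituitary ECs Exoc3l2 was at 192 and 458 TPM in the anterior and 445.5 and 222 TPM in the posterior lobe. Plpp3, a lipid phosphatase that degrades lysophosphatidic acid, was at 8.97 and 14.6 against 4.10 and 2.42 TPM (-1.93 ± 0.36; adjusted p = 0.032), a call that was lost without WT replicate 2 (-1.35, adjusted p = 0.083) or stabilized replicate 2 (-1.64, adjusted p = 0.10). Plpp3 was depleted in ECs too, at 576 and 154 TPM in the WT GFP-negative cells. Plvap, which forms the diaphragms of fenestrae and caveolae, was at 0 and 10.7 TPM in WT and 0.015 and 1.26 TPM in stabilized ECs, and Stab1, a scavenger receptor of sinusoidal ECs, at 60.6 and 28.9 against 9.32 and 16.5 TPM (-1.22 ± 0.35; adjusted p = 0.23). The most abundant member, Car4, a carbonic anhydrase on the surface of capillary ECs, lay higher in both stabilized libraries without passing, at 1482 and 1147 against 3568 and 2920 TPM (1.33 ± 0.43; adjusted p = 0.31). Summed over the list, of which Car4 made up most, the level was 2374 and 2031 TPM in WT and 4337 and 3557 TPM in stabilized ECs. Caveolin itself, Cav1, was at 154 and 181 against 170 and 116 TPM (-0.07 ± 0.29).

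The 2 lists of immune genes, which do not include Ccl21a, gave no call by edgeR over the 12 EC libraries. Leaving out 1 library gave 1 to 4 calls lower and 0 to 3 higher, the most without stabilized replicate 2 (4 and 3). Of 47 tested genes of antigen presentation by MHC class I and the interferon response, 0 were called by edgeR, with 22 below and 24 above 0 and a median of 0.00. B2m, the light chain of MHC class I, was at 875 and 546 against 476.5 and 368 TPM (-0.43 ± 0.30; adjusted p = 0.62) and the heavy chain H2-D1 at 696 and 427 against 394.5 and 334.5 TPM (-0.57 ± 0.28), both lower in each stabilized library. Ifi27, an interferon-induced gene of ECs, was at 68.4 and 77.0 against 171 and 236.5 TPM (1.39 ± 0.29; adjusted p = 0.053), and Irf7, a transcription factor that amplifies the interferon response, at 33.2 and 17.9 against 89.5 and 134 TPM (0.91 ± 0.47). Ly6a, the most abundant member, stood at 2023 and 1560 against 1514 and 1920 TPM. The members thus lay on both sides of 0 within this list.

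Of 49 tested genes of cytokines, chemokines and innate immunity, 0 were called either, with 29 below and 18 above 0 and a median of -0.18. For both lists together, 8 members were lower and 4 higher at an unadjusted p under 0.05, and DESeq2 called 4 lower and 2 higher. Cxcl12, a chemokine that ECs present to leukocytes, was at 490 and 346 against 271 and 199.6 TPM (-0.78 ± 0.52; adjusted p = 0.60). Myd88, the adaptor of Toll-like and interleukin-1 receptors, was at 6.84 and 7.75 against 0.208 and 0.569 TPM (-3.54 ± 0.83; adjusted p = 0.094). Nfkbia, the inhibitor of NF-kappaB and one of its targets, was at 122 and 46.4 against 44.1 and 28.9 TPM (-0.98 ± 0.29; adjusted p = 0.25). All 3 lay lower in both stabilized libraries. Ifngr1, a chain of the interferon-gamma receptor, lay higher in TPM (71.4 and 95.2 against 142 and 161), although its reads changed by a log2 fold change of only 0.22 ± 0.27. Outside the lists, and chosen after their values were seen, Lbp, which binds lipopolysaccharide, Traf1, a signaling adaptor of tumor necrosis factor receptors, and Cd1d1, which presents lipids to natural killer T cells, were called lower, all from WT levels of at most 3.79 TPM to 0 reads in both stabilized libraries.

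By sign, matrix genes were mostly below 0, where 53% of all genes tested lay. Levels of the matrix and remodeling lists in GFP-negative cells, also lower in stabilized libraries, are given further below. Of the 104 genes called lower, 9 belong to the lists of matrix components, remodeling enzymes and integrins. Of 74 tested genes of basement membrane and extracellular matrix, 5 were called lower (6.76%, against 0.581% of all genes) and 0 higher (2 at an unadjusted p under 0.05, 1 by DESeq2), 61 were below 0 and 12 above, and the median was -1.19 (-1.15 at the bounds), or -0.60 over the 24 members with a mean of at least 10 TPM. The groups did not overlap in 54 of the 74 (73.0%, against 35.1% of all genes), with 47 lower and 7 higher. Mmrn1 (chr6:60924976-60989378), multimerin, was at 0.709 and 0.565 TPM in WT and had 0 reads in both stabilized libraries, at least 70.6-fold lower (adjusted p = 1.7e-05). Emilin1, an elastin-associated glycoprotein, went from 3.53 and 1.86 TPM to 0 reads (at least 59.3-fold; adjusted p = 0.0015). Dcn, the proteoglycan decorin made chiefly by fibroblasts, went from 7.62 and 0.534 TPM to 0 reads (at least 104-fold; adjusted p = 0.0098), and Col25a1, a membrane collagen, from 0.305 and 0.115 TPM to 0 reads (at least 10.8-fold; adjusted p = 0.031). The fifth call was Lamb1 (chr12:31265234-31329644), the beta-1 chain of vascular laminins, at 5.77 and 31.5 TPM in WT and 0.40 and 0.856 TPM in stabilized ECs (-4.76 ± 0.88; adjusted p = 0.030).

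The abundant chains of the basement membrane lay lower without passing the test. Col4a1 and Col4a2, the collagen IV chains that form its network, were at 498.5 and 782 against 232 and 148 TPM (-1.26 ± 0.44; adjusted p = 0.35) and at 161 and 355 against 108 and 147 TPM (-1.02 ± 0.41; adjusted p = 0.44). Sparc, which binds collagen IV, was at 2147 and 2567 against 1256 and 1106 TPM (-0.80 ± 0.29; adjusted p = 0.38), and Nid1, which links laminin to collagen IV, at 28.9 and 68.3 against 8.96 and 19.1 TPM (-1.65 ± 0.49; adjusted p = 0.25). Each of these 4 was lower in both stabilized libraries. Mgp, an inhibitor of BMP signaling and of calcification, was at 54.4 and 43.0 against 4.26 and 2.07 TPM (-3.90 ± 0.81; adjusted p = 0.057). Not every matrix gene lay lower, however. Fn1, fibronectin, was at 1218 and 962 against 1923 and 1446 TPM (0.98 ± 0.37; adjusted p = 0.40), and Lamb2, the laminin beta-2 chain, at 159 and 227 against 434 and 372 TPM with a log2 fold change of reads of only 0.28 ± 0.26, since TPM also divides by the length of the transcripts to which the reads were assigned. Summed over the list the level was 7890 and 7334 TPM in WT and 6396 and 5673 TPM in stabilized ECs, and 6 and 2 members had 0 reads in the WT libraries against 18 and 27 in the stabilized libraries.

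Among 44 tested enzymes and inhibitors of matrix remodeling, 3 were called lower (6.82%, against 0.581% of all genes) and 0 higher (1 at an unadjusted p under 0.05, 1 by DESeq2), with 30 below and 11 above 0 and a median of -0.96, or -0.16 over the 10 members with a mean of at least 10 TPM. Among them, Sulf1, an extracellular heparan sulfate sulfatase, went from 2.28 and 1.02 TPM to 0 reads (at least 53.4-fold; adjusted p = 0.0042), and Adam19, a membrane metalloprotease, from 0.184 and 0.371 TPM to 0 reads (at least 32.7-fold; adjusted p = 0.0098). Of 18 integrins, 1 was called lower (5.56%) and 0 higher (1 at an unadjusted p under 0.05, 0 by DESeq2). It was Itgb3, the beta-3 chain of the vitronectin receptor, at 1.96 and 1.02 against 0.142 and 0.219 TPM (-2.96 ± 0.55; adjusted p = 0.031). The abundant laminin receptor chain Itga6, at 136 and 108 against 165 and 188 TPM, lay higher without passing (0.83 ± 0.25; adjusted p = 0.26), and Itgb1 overlapped between the groups. Of these 9 called genes, 0 had a mean of at least 10 TPM over the 4 libraries.

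Markers of other cell types that make matrix had lower summed levels as well, but the lists share members. Of the fibroblast markers, the collagens Col1a1, Col1a2 and Col3a1 with Dcn and Lum also belong to the matrix list, so that their values are counted in both. Summed levels of the fibroblast markers were 84.7 and 122 TPM in WT and 43.0 and 47.9 TPM in stabilized ECs, with 3 and 2 members at 0 reads against 6 and 7, and their median log2 fold change was -3.25 (-2.97 at the bounds). The defining collagen Col3a1 was at 15.7 and 10.7 against 0.271 and 0 TPM (-3.96 ± 1.44; adjusted p = 0.38), Dcn was called as given above, and Lum and Islr, with 1 and 26 reads over the WT libraries, had 0 reads in both stabilized libraries. Summed levels of the mural markers were 1192 and 945 against 752 and 590 TPM, with a median of -0.65 over the 13 tested and 0 called by edgeR (3 at an unadjusted p under 0.05, 0 by DESeq2). Pdgfrb, the pericyte receptor for PDGF-B, was at 19.5 and 13.3 against 9.04 and 2.88 TPM (-1.40 ± 0.48; adjusted p = 0.34), and Rgs5 at 548 and 488 against 363 and 318 TPM. Pan-endothelial markers differed less, with a median of -0.20. The part of fibroblasts and mural cells in the lower matrix genes was not tested.

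**Figure D4:**
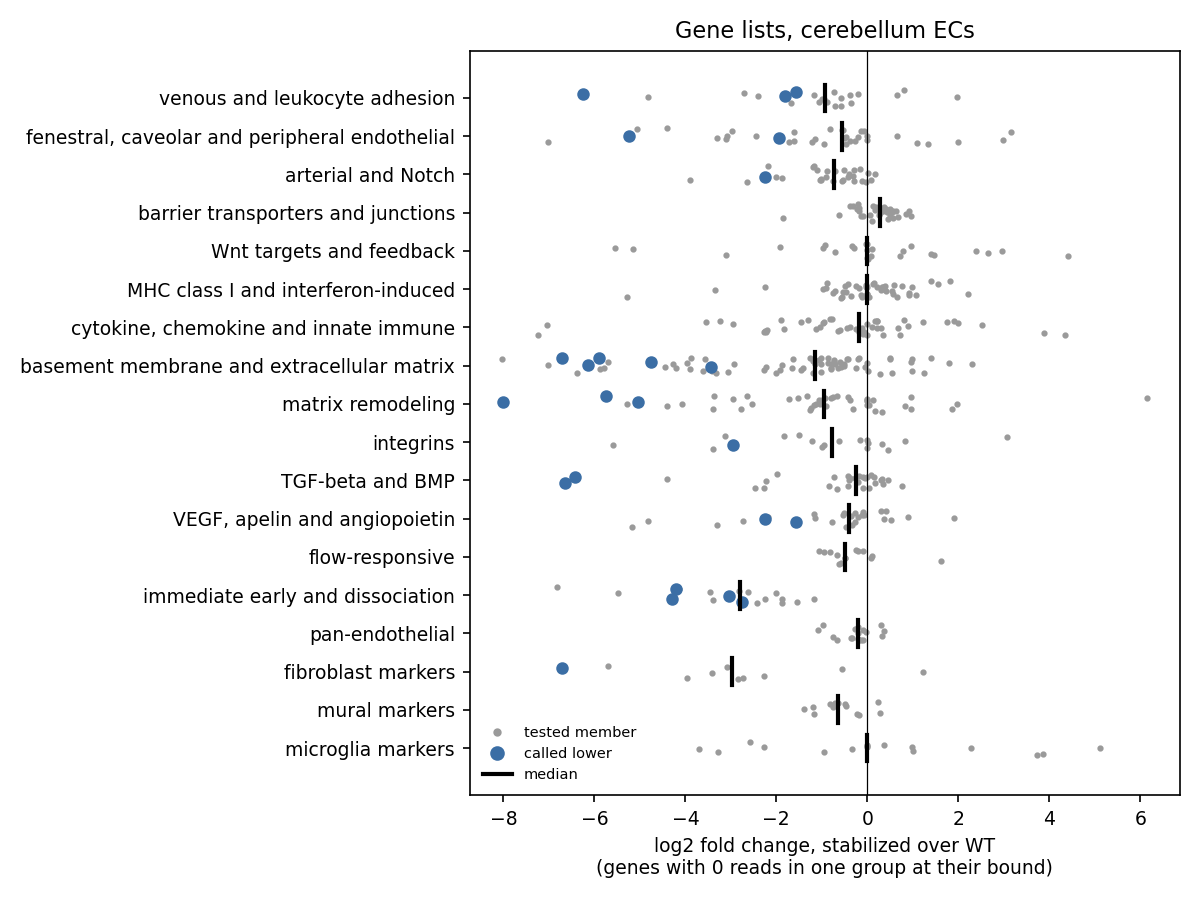
Log2 fold change of reads, stabilized over WT cerebellum ECs (horizontal axis), for the tested members of gene and marker lists; grey dots were not called, blue dots were called lower, black bars are medians, and genes with 0 reads in one group stand at their bound. Medians lie near -1 for the venous and matrix lists, at -2.79 for immediate early genes and near 0 for MHC class I and Wnt target genes, and no member of a list was called higher.

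Arterial and Notch genes resembled the venous ones in direction. Of 30 tested, 27 were below 0 with a median of -0.73, where 53% of all genes lay below 0. The share called lower among all genes was 0.581%, and 1 member was called lower (3.33%). It was Vegfc, the ligand of VEGFR3, at 28.1 and 12.4 against 3.59 and 7.14 TPM (-2.26 ± 0.41; adjusted p = 0.029). That call was lost without WT replicate 1 (adjusted p = 0.059) or stabilized replicate 2 (adjusted p = 0.087). Eln, elastin, was at 11.9 and 19.1 against 1.89 and 4.80 TPM (-2.00 ± 0.75; adjusted p = 0.39) and Fbln5, which guides elastic fiber assembly, at 26.6 and 33.3 against 10.1 and 4.14 TPM (-1.86 ± 0.55; adjusted p = 0.24). The Notch ligand Dll4 was at 34.05 and 14.6 against 15.8 and 10.65 TPM (-0.12 ± 0.29), and the receptor Notch1 at 188 and 123 against 187 and 113 TPM, both with overlapping groups. In the VEGF, apelin and angiopoietin list, Vegfc and its co-receptor Nrp2 were the called members (2 of 28, 7.14%), while the receptors Flt1, Kdr and Tek were not called, Kdr at 148 and 203 against 143 and 122 TPM. Of 30 tested genes of TGF-beta and BMP signaling, 2 were called lower (6.67%), both scarce already in WT ECs. These were Ltbp3, which holds latent TGF-beta in the matrix (254 against 2 reads, ratio 105, interval 28.9 to 876; adjusted p = 0.00058), and the ligand Bmp6 (206 against 2 reads, ratio 85.6, interval 23.4 to 711; adjusted p = 0.0098).

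Barrier and Wnt genes serve here for comparison. Of 35 tested barrier transporters and junction proteins, 0 were called by edgeR (2 higher and 0 lower at an unadjusted p under 0.05, and 0 by DESeq2), 25 were above and 10 below 0, and the median was 0.29. The groups did not overlap in 19 members that lay higher and 1 that lay lower (57.1%, against 35.1% of all genes), and examples were the efflux pump Abcg2 at 349 and 248 against 455 and 421 TPM (0.91 ± 0.25; adjusted p = 0.20) and the glucose transporter Slc2a1 at 1579 and 1625 against 1071 and 940.5 TPM (-0.31 ± 0.32). Of 25 tested Wnt targets and feedback genes, 0 were called by edgeR (2 higher and 3 lower at an unadjusted p under 0.05, and 1 lower by DESeq2), with 12 above and 10 below 0. Members on both sides of 0 did not pass. Myc, a growth-promoting transcription factor, was at 1.45 and 0.825 TPM in WT and had 0 reads in both stabilized libraries (adjusted p = 0.084), and Nkd2, a paralog of Nkd1, was at 2.0 and 1.53 against 0.913 and 0.0406 TPM (-1.91 ± 0.85; adjusted p = 0.50). On the other side were the inhibitors Nkd1 at 27.5 and 23.2 against 196 and 174.5 TPM (2.66 ± 0.66; adjusted p = 0.12), Axin2 at 30.25 and 41.45 against 73.9 and 113 TPM (1.47 ± 0.95; adjusted p = 0.58) and Apcdd1 at 166 and 158 against 348 and 221 TPM (0.78 ± 0.29; adjusted p = 0.39). Sp5, a direct target that codes for a transcription factor, was at 0.138 and 0.187 against 3.02 and 3.84 TPM (4.40 ± 2.22; adjusted p = 0.53). In the last 4 genes both stabilized libraries lay above both WT libraries, whereas Lef1, at 156 and 120 against 116 and 237 TPM, overlapped.

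The list with the highest share of calls was that of immediate early and dissociation genes, which cells switch on within minutes of stimulation or tissue digestion. Of 18 tested, 4 were called lower (22.2%, against 0.581% of all genes), all 18 were below 0 (against 53% of all genes), and the median was -2.79. Egr1, a zinc finger transcription factor, was at 70.4 and 10.5 against 1.09 and 2.43 TPM (-4.29 ± 0.78; adjusted p = 0.027), and its paralog Egr2 went from 2.65 and 1.01 TPM to 0 reads (at least 18.6-fold; adjusted p = 0.0090). Dusp1, a MAP kinase phosphatase, was at 140 and 20.5 against 9.45 and 14.3 TPM (-3.05 ± 0.55; adjusted p = 0.027), and Ier3 at 92.2 and 42.6 against 12.4 and 6.43 TPM (-2.75 ± 0.39; adjusted p = 0.0062). WT replicate 1 stood apart, with a summed level of 1898 TPM over the list against 250 TPM in WT replicate 2 and 184 and 165 TPM in the stabilized libraries. Without it all 4 were still called, at -2.69 for Egr1, -1.62 for Dusp1 and -2.25 for Ier3, with Egr2 again at 0 reads in both stabilized libraries. That library also held the most hemoglobin and other erythrocyte transcripts, 65220 TPM against 7177 TPM in WT replicate 2 and 12310 and 13270 TPM in the stabilized libraries, and the part of dissociation or of blood in these falls was not tested. Over the immediate early list, WT GFP-negative cells of the same cerebella summed to 428 and 158 TPM and stabilized ones to 74.0 and 46.5 TPM. Egr2 was called lower there too (-4.93, adjusted p = 0.015 by edgeR). Egr1, Dusp1 and Ier3 were below 0 there without being called (-2.18, -2.20 and -3.38). In both pituitary lobes all 4 were below 0 and not called.

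The response of cerebellum ECs was then set against that of pituitary ECs by testing the difference itself. Stabilized anterior pituitary replicate 2 is called posterior in 1 of its labels and was grouped by its title. In anterior pituitary ECs 79 genes were called higher (0.441%) and 3 lower (0.0167%), and in posterior pituitary ECs 224 (1.25%) and 97 (0.541%). The response differed between cerebellum and anterior pituitary ECs for 93 genes (0.519%), of which 91 were more negative in cerebellum, and between cerebellum and posterior pituitary ECs for 166 (0.927%), of which 154 were more negative in cerebellum. Of the 104 genes called lower in cerebellum, 45 and 56 differed in this way, and 0 were called in either direction in anterior pituitary ECs, while 4 were called lower and 3 higher in posterior pituitary ECs. As given above, stabilized libraries detected fewer genes than WT in cerebellum and more in both pituitary lobes, and the part of this in the differences was not tested. Of the genes called higher, 1 and 2 of the 12 differed.

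Ecscr was one of the genes with such a difference, although it was down to 40 and 21 reads in the stabilized cerebellum libraries. In anterior pituitary ECs it was at 73.6 and 70.9 TPM in WT and 57.9 and 46.9 TPM in stabilized ECs, and in posterior pituitary ECs at 123 and 61.9 against 36.6 and 31.5 TPM. The log2 difference in response was -3.53 (adjusted p = 0.031) against the anterior and -3.31 (adjusted p = 0.034) against the posterior lobe. Smagp gave -2.90 (adjusted p = 0.038) and -2.66 (adjusted p = 0.041), with 77.7 and 75.3 against 69.4 and 62.0 TPM in anterior pituitary ECs. Mmrn1 was at 39.0 and 39.6 TPM in WT and 49.3 and 32.8 TPM in stabilized anterior pituitary ECs, so that a gene which ended at 0 reads in stabilized cerebellum ECs overlapped between the genotypes there (difference adjusted p = 5.3e-05).

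Of the 12 genes called higher in cerebellum, 8 were also called higher in posterior pituitary ECs, against 1.25% of all genes. In anterior pituitary ECs 2 were, against 0.441% of all genes. Esr1, Cyp2e1 and Itih5 were among the 8. In posterior pituitary ECs Esr1 went from 0.035 and 0.012 TPM to 17.1 and 21.4 TPM (7.33, adjusted p = 0.0051), Cyp2e1 from 0 and 0.138 to 17.5 and 21.8 TPM (9.07, adjusted p = 0.0061) and Itih5 from 11.6 and 15.4 to 29.1 and 40.4 TPM (2.19, adjusted p = 0.0086). In both tissues these 3 genes had no overlap between the genotypes, and their responses were not shown to differ (adjusted p of the difference 0.92, 0.51 and 0.88). In anterior pituitary ECs Esr1 was at 5.96 and 2.48 TPM in WT and 39.9 and 54.0 TPM in stabilized ECs (1.96, adjusted p = 0.66), Cyp2e1 was at 0 TPM in every library, and Itih5 was at 20.4 and 23.1 against 36.2 and 30.0 TPM (0.68, adjusted p = 0.70). The groups of Esr1 and Itih5 did not overlap there.

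**Figure D5:**
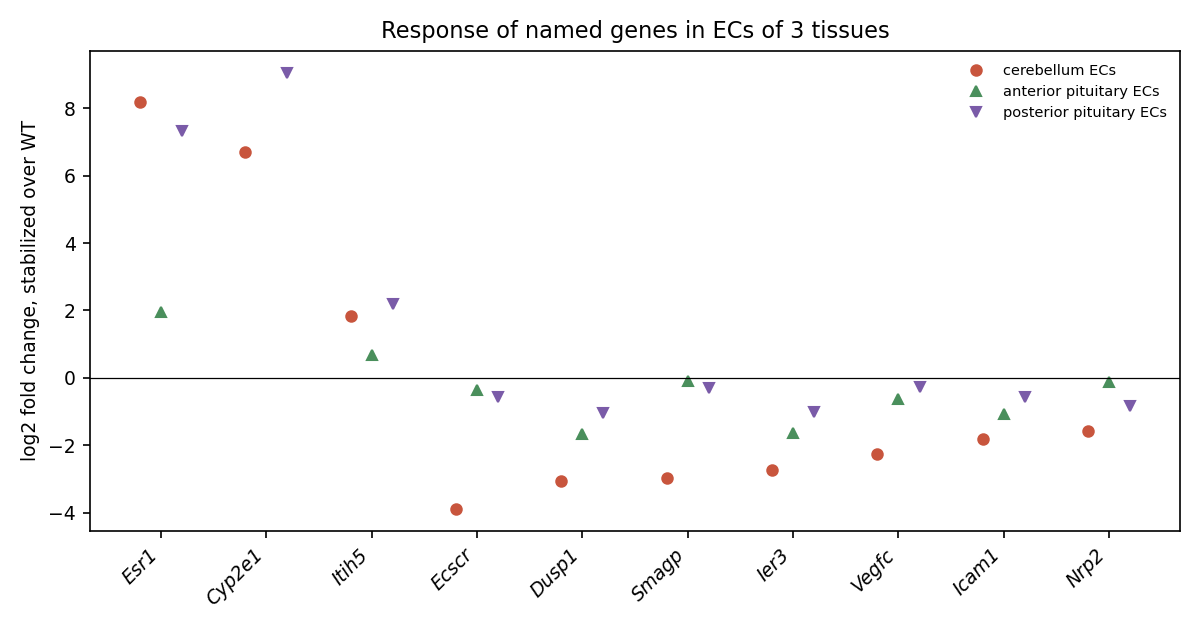
Log2 fold change of reads, stabilized over WT (vertical axis), of 10 named genes in ECs of cerebellum (circles), anterior pituitary (upward triangles) and posterior pituitary (downward triangles), each from 2 libraries per genotype. Cyp2e1 had no reads in anterior pituitary ECs and has no point there; Esr1, Cyp2e1 and Itih5 rose in both cerebellum and posterior pituitary, and the cerebellum points of Ecscr and Smagp lie far below their pituitary points.

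GFP-negative cells of the same cerebella, which share the genotype, the Cre transgene and the drug, were also compared. Here too the stabilized libraries held fewer reads in genes (19526595 and 12126895 against 32969234 and 35870335 in WT) and more of the 17915 genes at 0 reads (4063 and 4768 against 3153 and 1744), and the part of this in what follows was not tested. In them 13 genes were called higher (0.0609%) and 140 lower (0.656%), and the response differed from that of ECs for 92 genes (0.431%), 52 more negative and 40 more positive in ECs. Of the 104 genes called lower in ECs, 81 (77.9%) were also below 0 in GFP-negative cells, with a median of -1.01, whereas 56.3% of all genes were below 0, with a median of -0.19. Only 7 of the 104 were called lower there, and 20 differed between the cell populations. Summed levels in GFP-negative cells were 7042 and 2596 TPM in WT against 2427 and 918 TPM in stabilized libraries for the matrix list. For the remodeling list they were 822 and 425 against 383 and 148 TPM. The venous list was at 109 and 114 against 66.0 and 25.6 TPM. The fenestral list overlapped (734 and 288 against 374 and 175 TPM), and neuron markers lay higher (625 and 589.5 against 1281 and 1095 TPM). Esr1, at 0 and 0.156 TPM in WT and 0 TPM in both stabilized GFP-negative libraries, and Itih5, at 9.53 and 6.61 against 3.97 and 2.1 TPM, differed in response (adjusted p = 0.0074 and 0.033).

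Cortical ECs measured by RiboTag gave a further comparison. The libraries labelled as stabilized cortex held Xist, which female cells transcribe, at 7.76 and 8.29 TPM and no reads of Ddx3y, unlike their WT counterparts (0 TPM and 16.9 and 12.5 TPM), although all are labelled male, so sex and genotype cannot be told apart in that comparison. There 612 genes were called higher (3.65%) and 448 lower (2.67%). Of the 102 cerebellar lower genes tested, 61 (59.8%) were below 0, 4 were called lower and 9 were called higher, whereas 50.1% of all 15175 shared genes were below 0. Of the 12 genes called higher, 4 were above 0 in cortex, 2 were called higher and 2 lower. The medians in cortex were above 0 for the venous (0.59), arterial (0.30), matrix (0.55) and remodeling (0.62) lists, whereas those in cerebellum were below 0. Other endothelial lists were also above 0 in cortex, with 0.97 for the pan-endothelial and 0.92 for the barrier list, and markers of neurons (-1.06), astrocytes (-0.98) and oligodendrocytes (-1.19) were below 0. The part of this shift in the cortex values was not tested. Itih5 was at 27.7 and 14.5 against 54.4 and 43.0 TPM in cortex (2.07; adjusted p = 0.0090), Cyp2e1 at 8.69 and 0.344 against 0.0781 and 0.443 TPM (-3.30; adjusted p = 0.32), Esr1 at 12.7 and 12.5 against 10.3 and 8.46 TPM (0.02), and Icam1 at 13.5 and 10.55 against 7.74 and 6.515 TPM (0.93). The last 3 did not pass, and for Icam1 reads and TPM point in opposite directions.

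ATAC-seq of the same sorted populations, which maps accessible chromatin, gave 26394 and 24020 peaks in WT and 33514 and 31669 in stabilized cerebellum ECs, counting peaks above 2 in both fold enrichment and -log10 q. Present in both stabilized and neither WT library were 5284 peaks (gained), and the reverse held for 694 (lost). These counts compare peak lists of unequal length, and the part of that in the balance of gained and lost peaks was not tested. The study, which compared read counts in regions, reported the opposite balance in cerebellum ECs, with more regions lost than gained. A gained peak lay within 100 kb of 7 of the 12 genes called higher (58.3%), of 55 of the 104 called lower (52.9%) and of 9262 (51.7%) of all genes tested. The share near called genes was thus close to that near any gene, and lost peaks lay near 0 of 12, 10 of 104 (9.62%) and 1275 (7.12%). Lost peaks depended on single libraries: without WT ATAC replicate 2 they lay near 2 of 12, 37 of 104 (35.6%) and 26.7% of all genes, and without WT ATAC replicate 1 near 3 of 12, 21 of 104 (20.2%) and 18.1%.

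At Esr1 the gained peak was inside the gene, in an intron, at chr10:4612740-4613018 (GRCm38) with its summit 1263 bases downstream of the start of the gene and a fold enrichment of 3.94 and 4.51. At Lepr the strongest of 3 gained peaks lay in an intron at chr4:101732541-101732894, 15334 bases from the start, with 10.4 and 11.7. The bases around these summits, from RefSeq's GRCm38.p6 assembly on the plus strand, are shown as 2 examples, the only gained peak of Esr1 and the strongest of Lepr. Gained peaks also lay inside Pcdh7 (2) and elsewhere in Lepr (2):
Esr1, chr10:4612756-4612956: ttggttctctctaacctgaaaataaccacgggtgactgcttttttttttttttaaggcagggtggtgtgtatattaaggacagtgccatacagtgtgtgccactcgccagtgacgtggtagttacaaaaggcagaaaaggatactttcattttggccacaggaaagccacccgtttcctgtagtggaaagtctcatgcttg
Lepr, chr4:101732638-101732838: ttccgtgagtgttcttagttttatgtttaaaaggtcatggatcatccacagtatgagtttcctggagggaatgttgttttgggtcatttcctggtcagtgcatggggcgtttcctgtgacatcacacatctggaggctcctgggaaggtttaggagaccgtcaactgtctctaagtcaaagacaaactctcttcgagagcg
A TCF/LEF motif was sought as the letters ATCAAAG or TTCAAAG on both strands. Neither sequence holds a match, which is why no letters are in capitals, and 12.9% of the 5284 gained, 5.91% of the 694 lost and 8.24% of all peaks of WT replicate 1 hold one in windows of the same length, as do 9.70% of all peaks of stabilized replicate 1. Itih5 had its gained peak outside the gene, at chr2:10288566-10288803, with 4.78 and 4.28, Cyp2e1 had 4 gained peaks outside the gene, and Nxpe4 had none within 100 kb. Gained peaks also lay near genes that fell, such as 1 at 69017 bases from the start of Ccl21a with a fold enrichment of 11.1 and 10.7 and 1 at 2040 bases from the start of Nrp2 with 3.56 and 3.59.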

How the data were processed

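The authors dissociated tissue with papain, sorted live cells on GFP, amplified RNA with the NuGEN Ovation Ultralow V2 kit and sequenced single ends. They quantified transcripts with Salmon 0.10.2, per the labels and the study's methods, with bias correction and an Ensembl annotation of GRCm38. The deposited files give estimated counts and TPM per transcript. Both were summed per gene with GENCODE M21 names, which matched all but 402 of 130740 transcripts (0.171% to 0.347% of the reads of the 4 libraries), and counts were rounded. How many mice a cerebellum library holds is not given in the sources used here, and the amplified reads carry no molecular identifiers, so that intervals cover counting error only. The authors describe the 2 replicates as independent, and p-values measure the spread between them.

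Genes kept by filterByExpr were normalized by TMM and fitted with edgeR 4.0.16 (R 4.3.3) quasi-likelihood over the 12 EC libraries, with a coefficient per group and Benjamini-Hochberg adjustment over all genes. SE is the log2 fold change divided by the square root of F. Enrichment in ECs, averaged over both genotypes, and responses of GFP-negative cells came from a fit of all 24 sorted libraries. Cortex values came from a fit of the RiboTag libraries added after the data were seen. With 0 reads in a group, the fold is a lower bound from 3 reads over the group scaled to library size, and with 1 to 3 reads it is a ratio with an exact 95% interval. The text names Ctnnb1, up to 10 rises and 10 falls by size among called, EC-enriched genes with at least 10 TPM in both libraries of the higher group, 3 each that were not EC-enriched, and up to 4 called members of each list, or the 2 most abundant members. Further members of the lists are given as examples, chosen after their values were seen. Some results on single genes are not reported here. Members and lists were chosen with earlier results of these data known. The study's EBSeq test was not run. DESeq2 1.42.0 and the other settings are compared at the end. The scripts were tested on simulated data.

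For ATAC-seq the authors aligned reads with Bowtie2 2.3.2 and called peaks per library with MACS2 2.1.1.20160309. The deposited peak files give fold enrichment (a ratio) and -log10 q values, and peaks were kept by the authors' thresholds on both. A peak was gained if it overlapped by at least 1 base a peak in the other stabilized library and none in WT (bedtools 2.31.1). Fold enrichment over 4, a 10 kb window, overlap of 0.5 of the shorter peak and leaving out each library were tried.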

Additional observations from a re-analysis of the deposited data

Results flagged for a closer look

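For the named genes given here, the response to stabilization in cerebellum ECs differed from that in another population by edgeR's test of the difference itself. Against anterior pituitary ECs these were mostly genes that fell to few or 0 reads in stabilized cerebellum ECs: Mmrn1 (adjusted p = 5.3447e-05), Gm5641 (0.00069289), Ltbp3 (0.0014765), Emilin1 (0.0035119), Sulf1 (0.0052419), Exoc3l2 (0.0055903), Ptgs1 (0.0057664), Rps29 (0.011961), mt-Co3 (0.012719), Dcn (0.015636) and Adam19 (0.019613). Ecscr (difference -3.53 on the log2 scale, adjusted p = 0.031239) and Smagp (-2.90, 0.03829) kept some reads. Prom1 (-6.45, 0.012719) was not called in cerebellum, at 752 and 789 against 812 and 672 TPM, and rose in anterior pituitary ECs (6.52, adjusted p = 0.0028), as did the pericyte marker Rgs5 (1.41, adjusted p = 0.026), which also differed (-1.89, 0.031239). All of these differences were more negative in cerebellum.

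Against posterior pituitary ECs, Mmrn1 (adjusted p = 1.8643e-05), Gm5641 (0.00059536), Ptgs1 (0.002587), mt-Co3 (0.0026343), Ltbp3 (0.0045308), Emilin1 (0.0060852), Exoc3l2 (0.0092508), Rps29 (0.01123), Egr2 (0.02808), Sulf1 (0.028163), Adam19 (0.036061) and Dcn (0.037549) were more negative in cerebellum. So were Ecscr (-3.31, 0.034067) and Smagp (-2.66, 0.041467). Rps18 (-4.95, 0.004077), the Wnt target Apcdd1 (-2.92, 0.0060852) and the myelin gene Mal (-4.67, 0.001144) differed as well, with the more positive response in the posterior lobe. Stabilized libraries detected more genes than WT in both pituitary lobes and fewer in cerebellum, and the part of this was not tested.

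Against GFP-negative cells of the cerebellum, Itih5 had the more positive response in ECs (2.70 on the log2 scale, adjusted p = 0.033099), as did Esr1 (0.0074119), for which both GFP-negative groups were at or near 0. Ltbp3 (0.00697), Dcn (0.00697), Sulf1 (0.0032237) and Gm5641 (0.013165) also differed.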

How the results depend on the processing

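The counts depended on the test and on which libraries were in the fit. The choice of libraries also changed the number of genes tested, 13513 with only the groups compared and 21343 with all 24 sorted libraries, against 17915. Of the 73 named genes, 0 had their call reversed under any setting. DESeq2 called 126 genes higher and 652 lower, including all 12 and 104 of the main call. Without a filter on low counts, 114 and 455 were called. A fit of only the groups compared called 3 and 3, of which 2 and 3 were among the main calls. With an offset for gene length 9 and 63 were called, with all 24 sorted libraries 10 and 122 (56 of the 104 shared), and among genes with at least 10 TPM in both libraries of the higher group, or with a mean of at least 10 TPM (chosen after seeing the data), 8 and 25. Leaving out 1 library gave 18 to 52 higher and 153 to 466 lower, the most without stabilized replicate 1 (52 and 466) and, for higher calls, the fewest without WT replicate 1 (18, and 210 lower). Without stabilized replicate 2 there were 25 and 188, and without WT replicate 2 there were 26 and 153. The split between higher and lower calls moved with the setting, to 50.0% lower with only the groups compared, 75.8% at 10 TPM and 80.0% without a filter.

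By theme, DESeq2 called 1 venous gene higher and 4 lower, 2 and 7 fenestral, 2 and 4 immune, and 2 and 27 matrix genes. Without a filter the counts were 1 and 3 venous, 4 and 12 fenestral, 6 and 5 immune, and 3 and 28 matrix. With only the groups compared all themes gave 0. With the length offset 1 venous, 1 fenestral and 7 matrix genes were lower, and with all 24 libraries 0 venous, 1 fenestral, 1 immune and 5 matrix genes. At 10 TPM 2 venous (1 by mean), 0 fenestral and 0 matrix genes were lower. RLE normalization called 1 immune gene higher. Leaving out 1 library gave 0 to 2 venous higher, 0 to 2 and 1 to 10 fenestral higher and lower, 0 to 3 and 1 to 4 immune, and 0 to 1 and 11 to 23 matrix. The responses differed from anterior pituitary, posterior pituitary and GFP-negative cells for 695, 1054 and 789 genes by DESeq2, 632, 831 and 743 without a filter, 66, 100 and 35 with the length offset and 53, 99 and 3 with only the groups compared. Leaving out 1 library gave 152 to 463, 204 to 573 and 106 to 265.

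The main fit did not pair libraries by replicate number. Deviations of same-numbered libraries from their group means correlated at -0.0453 over 5963 genes, which cannot settle whether those libraries were handled together. With a replicate block 33 genes were called higher and 192 lower (98 of the 104 shared), 1 and 3 venous, 1 and 6 fenestral, 2 and 1 immune and 1 and 15 matrix genes, and 217, 341 and 71 genes differed in response. Of the named genes, 28 lost their call with only the groups compared (Esr1 at adjusted p = 0.434), 16 with all 24 libraries, 10 with the length offset, 3 without stabilized replicate 2, 3 without WT replicate 2 and 1 without WT replicate 1. With ATAC fold enrichment over 4, gained peaks lay near 42.3% of lower and 41.1% of all genes and lost peaks near 1.92% and 5.00%, and within 10 kb gained peaks lay near 25.0% and 19.5%. The cause of these shifts was not tested. With 2 libraries per group, genes under a few reads cannot be told from absent ones.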

Other observations

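Several called genes belong to none of the groups described so far. Those given here were chosen after their values were seen. Dbp, a clock output transcription factor, was at 148 and 8.27 TPM in WT and 0.207 and 0.577 TPM in stabilized cerebellum ECs, with WT replicate 1 far above WT replicate 2. Tsc22d3, a glucocorticoid-induced gene, was at 15.3 and 25.6 against 5.83 and 4.25 TPM (log2 fold change -2.44, edgeR adjusted p = 0.031), and Hsph1, a heat shock protein, at 32.7 and 28.4 against 11.7 and 6.04 TPM (-2.19, adjusted p = 0.013). All 3 were lower in both stabilized libraries. Gpr182, an atypical chemokine receptor of lymphatic and sinusoidal ECs, was at 2.86 and 1.22 against 0.156 and 0.0909 TPM (-3.80, adjusted p = 0.00033), and Fstl1, a secreted glycoprotein, at 22.2 and 38.5 against 6.09 and 2.19 TPM (-2.06, adjusted p = 0.027).

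Prl, the pituitary hormone prolactin, was read in both WT cerebellum EC libraries at 10.6 and 1.39 TPM and had 0 reads in both stabilized libraries (adjusted p = 0.025). The source of these reads was not tested. Nor was that of the scarce WT cerebellum reads of Exoc3l2, Ptgs1 and Mmrn1, which were far more abundant in WT anterior pituitary ECs.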
